A study of Drosophila melanogaster with 14 samples.

Results

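Embryos with 1 copy of *salm* and *salr* (He) were compared with wild type embryos (WT) at early stage 16, using the 4 libraries He16ab, He16c, WT16ab and WT16c out of the 14 mRNA-Seq libraries of the series. These 4 were taken by genotype and stage from the labels, so no measured value chose them. The WT stock was *Oregon R*. He embryos were *Df(2L)32FP-5/+*, and were picked by the absence of GFP among the F1 of *Df(2L)32FP-5/CyO-GFP* females and *white*- males. The deficiency removes both *salm* and *salr* from 1 chromosome. He and WT therefore differ in the dose of these genes and also in the strains that supplied the remaining chromosomes, and these contributions cannot be told apart in this comparison. Each library was made from poly-A RNA of whole embryos in pools of 50, collected at 13 to 14 hours of development. Library ab of each genotype joins technical replicates from experiments a and b, library c comes from another experiment, and each genotype thus has 2 values and n = 2 throughout. The 8 libraries of WT and He at stages 16 and 17 were fitted together, and the stage 17 libraries of the same genotypes (He17, WT17) also served to see which differences recurred. Homozygous embryos without either gene at stage 17 (Ho17, 3 libraries) are given in places.

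*salm* and *salr* encode zinc finger transcription factors of the Spalt-like family, which in *Drosophila* embryos act in the nervous system, the tracheae, the oenocytes and the sensory organs. Both lie next to each other on chromosome arm 2L and are expressed in overlapping patterns. Loss of both copies is lethal in late embryos, whereas embryos with 1 copy develop. Stage 16 is the time at which the nerve cord condenses and the cuticle is laid down.

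For each gene and library, the authors deposited a value on a log2-like scale that they had made from read counts. Whole reads were recovered from these values, and levels are given below as reads per 1000000 reads on genes (CPM). Library depth was 12895645 and 22501536 reads on genes in WT16ab and WT16c, and 14591969 and 21661117 in He16ab and He16c, so that both c libraries were deeper. Even so, more genes had 0 reads in the c libraries, with 1812 in WT16ab, 2748 in WT16c, 1540 in He16ab and 2719 in He16c. Where a gene has 0 reads, up to 3 reads are still allowed by counting error, which came to between 0.133 and 0.233 CPM in these 4 libraries. Such limits leave out other sources of error. Differences are He minus WT of the deposited values, on their log2-like scale, with the standard error (SE) of a limma fit. This scale is not the log2 of a fold change. A doubling from 10 normalized reads is 0.57 on it, a doubling from 200 is 1.14, and a doubling from 1000 is 1.32, so that differences of genes with few reads are understated and those of genes with many reads overstated. Of 11337 genes tested with limma, 4 rose and 4 fell in He16 at a Benjamini-Hochberg adjusted p under 0.05, which is 0.0353% of the tested genes in each direction. Before adjustment, 191 genes (1.68%) had a p under 0.05 with a higher value in He16, and 235 (2.07%) with a lower one. The median difference over all tested genes was 0.01.

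**Figure D1:**
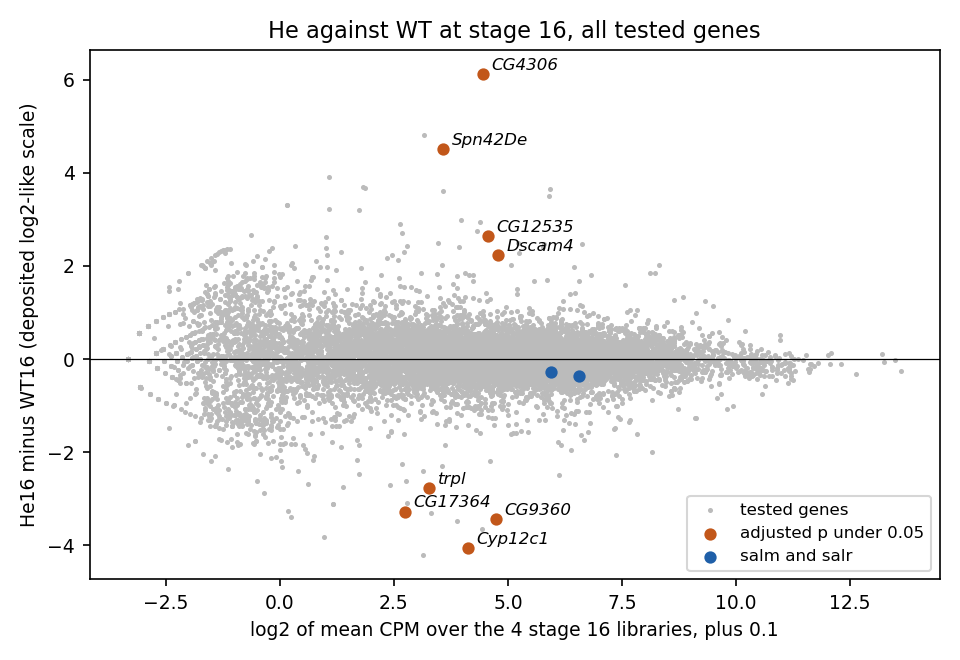
Difference between He16 and WT16 (vertical axis, deposited log2-like scale) against mean level (horizontal axis, log2 of CPM plus 0.1) for the 11337 tested genes, in grey. The 8 genes past an adjusted p of 0.05 are named, from *CG4306* at 6.12 to *Cyp12c1* at -4.06, and *salm* and *salr* (blue) lie at -0.36 and -0.28.

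The genes removed by the deficiency were examined first. *salm* (CG6464) had 88.9 and 118 CPM in WT16ab and WT16c, and 87.0 and 85.5 CPM in He16ab and He16c. The 2 He libraries were below both WT libraries, with little distance between WT16ab and the higher He library. The difference was -0.36 (SE 0.29, unadjusted p = 0.24 from limma across all genes), which is 82.0% of the WT level, and its 95% interval ran from -1.02 to 0.29. A halved WT level of *salm* would lie at -1.31 on this scale, below the lower end of the interval, while an equal level lies within it. For *salr* (CG4881), the WT libraries had 58.5 and 73.8 CPM and the He libraries 60.6 and 55.0 CPM, so that the groups overlapped. Its difference was -0.28 (SE 0.27), with a 95% interval from -0.88 to 0.33, and a halved level would lie at -1.27. At stage 17 the differences were -0.38 for *salm* and -0.64 for *salr* in the same limma fit, with adjusted p-values of 0.81 and 0.70. There *salr* had 44.8 and 57.4 CPM in WT17, and 35.2 and 38.45 CPM in He17, without overlap. Both He17 libraries were below both WT17 libraries for 13.8% of tested genes. The unadjusted p of *salr* at stage 17 was 0.040 from limma, and the stage 17 libraries of *salm* overlapped. None of these 4 differences was called, so a lower level of either gene in embryos with 1 copy was not shown by these libraries.

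The 5 nearest tested genes on each side of the pair, in annotation order, were compared next, since the deficiency and its chromosome are also present there. None was called by limma. The widest difference belonged to *sala* (*spalt-adjacent*), the immediate neighbour of *salm*. It had 8.38 and 10.4 CPM in WT16, and 23.0 and 33.1 CPM in He16, without overlap. The difference was 1.67 (SE 0.87, unadjusted p = 0.089 from limma across all genes), and at stage 17 *sala* was again higher in He, by 3.31 (unadjusted p = 0.0046 from limma). The exact negative binomial test on recovered reads, an alternative described further on, gave *sala* an adjusted p of 0.0020 at stage 16 and 0.0014 at stage 17. At the far end of the window *CG31705* had 74.3 and 68.0 CPM in WT16 against 47.6 and 44.8 CPM in He16, a difference of -0.84 (SE 0.29). *spz4*, which encodes a Spätzle-like ligand, was level with WT at stage 16 (183 and 198 CPM in WT, 196 and 192 CPM in He; difference -0.01). The other 7 genes of the window differed by between -0.52 (*cmet*, a kinesin) and 1.01 (*mre11*, of the DNA break repair complex), and each of their 95% intervals held 0. *cana* and *CG33695* had the same reads in every library and count as 1 measurement.

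**Figure D2:**
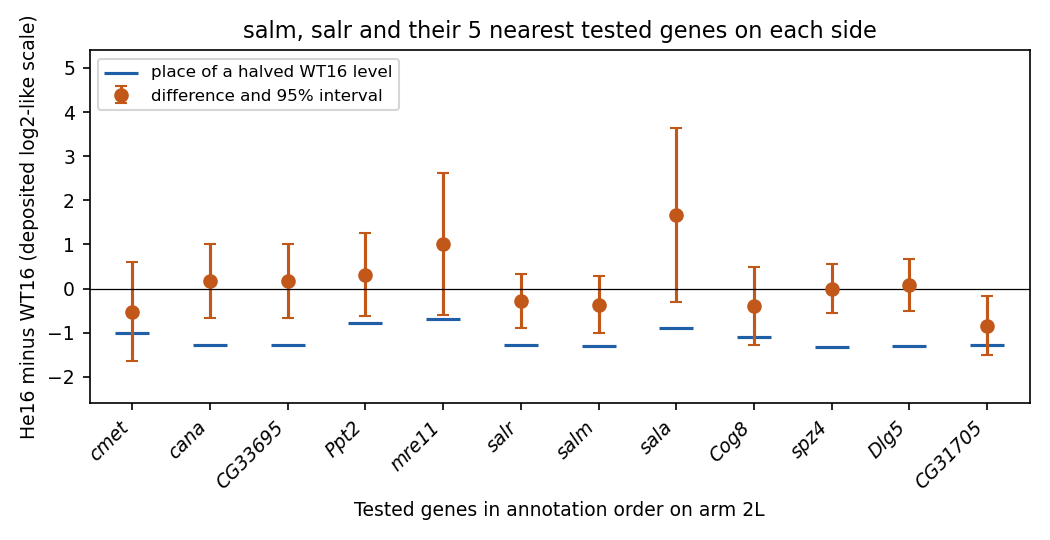
Difference He16 minus WT16 (vertical axis, deposited log2-like scale) for *salr*, *salm* and the 5 nearest tested genes on each side, in annotation order on arm 2L. Points are limma differences and bars 95% intervals. Blue marks show where a halved WT16 level of each gene would lie on this scale. The bars of *salm* and *salr* end above their marks at -1.31 and -1.27, and *sala* lies highest at 1.67.

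The 2 He libraries differed from each other at a few genes, *w* among them, and this was looked at before the other results. *w* (*white*), which encodes an eye pigment transporter and is mutated in the fathers of the He embryos, had 38.7 and 35.7 CPM in WT16. It had 11.7 CPM in He16ab and 0.369 CPM in He16c, which is 170 and 8 reads. The same split was present at stage 17, with 3.45 CPM in He17ab and 0 reads in He17c. *mthl8*, a receptor gene of the Methuselah-like family, had 15.7 CPM in He16ab and 15.7 CPM in He17ab, but 0 reads in He16c and in He17c, while WT libraries had between 13.5 and 22.4 CPM. *CG34437* was split the other way, with 0.548 CPM in He16ab and 9.05 CPM in He16c. In WT it was lower in the ab library as well, by less, with 4.575 CPM in WT16ab and 8.98 CPM in WT16c. A search for genes with at most 10 reads in both He libraries of 1 letter and at least 3 CPM in both of the other letter found these 3. A further pair was seen in the antioxidant list and chosen after its values were seen. The peroxiredoxin genes *Prx6b* and *Prx6c* had 28.4 and 28.4 CPM in He16ab, and 2415 and 1844 CPM in He16c. WT16ab and WT16c had 36.5 and 406 CPM of *Prx6b*, so that the c library was higher in WT as well, by less. At stage 17 *Prx6b* and *Prx6c* had 22.1 and 40.8 CPM in He17ab, and 1267 and 1695 CPM in He17c. WT17ab and WT17c had 11.4 and 71.3 CPM of *Prx6b*. The ab and c libraries of He thus differed at all of these genes at both stages, and the part of this in the other differences was not tested.

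**Figure D3:**
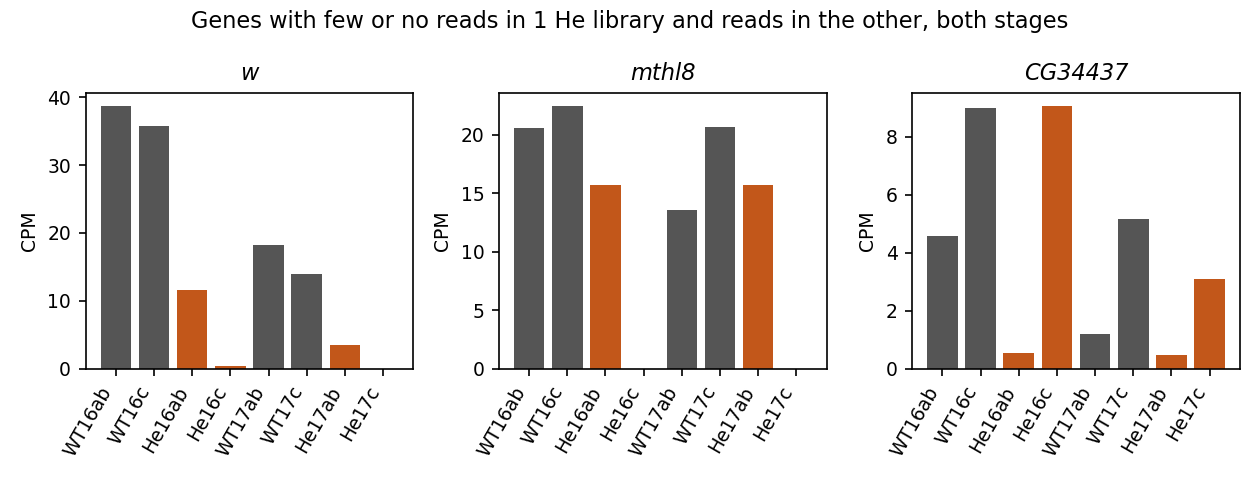
Level in CPM (vertical axes, each from 0) of *w*, *mthl8* and *CG34437* in the 8 WT (grey) and He (orange) libraries. *w* and *mthl8* have between 0 and 8 reads in He16c and He17c and are present in He16ab and He17ab, and *CG34437* shows the opposite split.

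The 4 genes that rose are led by *CG4306*, which belongs to the gamma-glutamylcyclotransferase family, enzymes that act on glutathione breakdown products. It had 0.155 and 0.133 CPM in WT16, from 2 and 3 reads, and 37.9 and 49.2 CPM in He16, from 553 and 1065 reads. Both He libraries were far above both WT libraries. The difference was 6.12 (SE 0.38, adjusted p = 0.0014 from limma). The ratio of pooled CPM, from the summed reads of a genotype over its summed depth, was 316. Its exact (Clopper-Pearson) 95% interval for counting error ran from 135 to 974. *Spn42De*, a serine protease inhibitor of the serpin family, had 0.310 and 0.444 CPM in WT16, and 22.8 and 24 CPM in He16. It rose by 4.51 (SE 0.43, adjusted p = 0.015 from limma), and the ratio of pooled CPM was 59.4 (exact interval 35.2 to 109). *Dscam4* and *CG12535* changed less and from a higher WT level. *Dscam4*, an immunoglobulin-type cell adhesion molecule related to *Dscam1*, had 11.1 CPM in both WT16 libraries, and 40.4 and 46.8 CPM in He16 (difference 2.23, SE 0.26, adjusted p = 0.035 from limma). *CG12535* had 7.6 and 7.02 CPM in WT16, and 36.5 and 43.0 CPM in He16 (difference 2.64, SE 0.32, adjusted p = 0.036 from limma). It overlaps *Myc* in the annotation, whose level was between 122 and 143 CPM in all 4 libraries, and the library kit did not mark the strand of a read.

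The 4 genes that fell include a mitochondrial-type cytochrome P450, *Cyp12c1*. It had 41.0 and 25.2 CPM in WT16, and 1.65 and 1.39 CPM in He16, a fall of 4.06 (SE 0.40, adjusted p = 0.015 from limma) or 22.4-fold in normalized reads. *CG9360*, a gene of the short-chain dehydrogenase family, had 50.0 and 45.1 CPM in WT16 against 5.96 and 4.71 CPM in He16, and fell by 3.43 (SE 0.34, adjusted p = 0.015 from limma). The He libraries lay close together and far below WT for both genes. *CG9360* overlaps *m* in the annotation, which had 347 and 441 CPM in WT16, and 304 and 499 CPM in He16. *CG17364* had 10.4 and 15 CPM in WT16, and 0.480 and 0.693 CPM in He16 (difference -3.28, SE 0.36, adjusted p = 0.028 from limma). *trpl*, which encodes a cation channel of the TRP family known from photoreceptors, had 15.7 and 18.8 CPM in WT16, and 1.99 and 1.89 CPM in He16. It fell by 2.77 (SE 0.34, adjusted p = 0.037 from limma). No He library overlapped a WT library for any of these 8 genes, which was true of 20.1% of tested genes in the higher and 14.4% in the lower direction.

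The number of calls depended on the fit. With the experiment letter as a replicate block, 8 genes were higher (0.0706%) and 6 lower (0.0529%), among them all 8 genes above, with adjusted p-values between 0.0024 and 0.030 from limma. An exact negative binomial test, run on recovered reads, called 90 higher and 77 lower genes at an adjusted p under 0.05 (0.708% and 0.606% of the 12708 it tested), again with all 8. Its variance comes from a curve over genes, so the spread between a gene's own libraries does not enter its p-values. Fewer calls were made by other fits: 1 with all 14 libraries, 0 with precision weights, 0 without He16c, 1 without He16ab or without WT16c, 3 without WT16ab, and 2 without He17ab or without He17c. *CG4306* was among them wherever any gene was called, and leaving out WT17ab or WT17c gave 6 higher and 6 lower genes with all 8 among them.

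Genes that did not pass the adjusted test were added by unadjusted p, until up to 12 genes per direction were named together with the called ones. They had an unadjusted p under 0.01 in limma, no overlap and at least 10 CPM in the higher group. In all 29 higher and 56 lower genes met these conditions (0.256% and 0.494% of tested genes). Among the higher ones, *GstE6*, a glutathione S-transferase of the epsilon class, had 15.9 and 12.8 CPM in WT16, and 109.5 and 101.5 CPM in He16 (difference 3.50, SE 0.48). *CG13203* had 16.5 and 10.1 CPM in WT16, and 133 and 84.2 CPM in He16 (difference 3.66, adjusted p = 0.045 from limma with the replicate block). *Ir40a*, an ionotropic receptor of the antenna that serves humidity sensing in adults, had 1.01 and 1.11 CPM in WT16 against 14.2 and 31 CPM in He16 (difference 3.61, adjusted p = 0.030 from limma with the replicate block). *pst* (*pastrel*), known for its part in resistance to viruses, had 15 and 12.5 CPM in WT16, and 74.2 and 48.0 CPM in He16 (difference 2.49, adjusted p = 0.052 from limma, and 0.028 with the replicate block). *ZnT35C*, a zinc transporter, and *phr*, a photolyase that repairs ultraviolet damage in DNA, differed by 2.40 and 2.50. *phr* overlaps *Prosalpha1*, which had 12.4 and 10.3 CPM in WT16, and 20.6 and 19.9 CPM in He16. *CG34035* and *CG8157* differed by 2.90 and 1.67. *CG8157* had 22.0 and 31.8 CPM in WT16, and 62.7 and 73.8 CPM in He16.

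Among the lower ones, *sgl*, which encodes UDP-glucose dehydrogenase and so supplies the sugar for proteoglycan chains, had the highest level of the 12 listed. It had 404 and 442 CPM in WT16, and 125 and 170 CPM in He16 (difference -1.99, SE 0.30), which is 2.91-fold lower in normalized reads, with an adjusted p of 0.11 from limma and of 0.016 with the replicate block. *CG2233* had 117 and 103 CPM in WT16, and 28.4 and 29.9 CPM in He16 (difference -2.48, SE 0.35, adjusted p = 0.071 from limma). The libraries of each genotype lay close together for both. *Gbp3*, a growth-blocking peptide, had 11.6 and 12.8 CPM in WT16 against 1.03 and 1.57 CPM in He16 (difference -2.62, adjusted p = 0.037 from limma with the replicate block). *Acbp5*, an acyl-CoA binding protein, and *CG30002* differed by -2.31 and -3.31. *Acbp5* overlaps *Fhos*, which had 234 and 276 CPM in WT16, and 226 and 292 CPM in He16. *CG42369* differed by -2.18 and overlaps *DIP-epsilon*, an immunoglobulin-type surface protein, which differed by -1.40, so the reads of these 2 cannot be assigned with certainty. The glutathione synthetase genes *Gss1* and *Gss2* lie next to each other on the X chromosome and are near copies, and their reads may be split between them. *Gss1* had 95.1 and 106 CPM in WT16, and 54.9 and 52.9 CPM in He16 (difference -1.21), and *Gss2* differed by -1.53. *CG2233* was singled out for dose by the study on these samples, as were *Drsl5*, *mt:ND2* and *sala*, so their differences are not independent evidence.

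**Figure D4:**
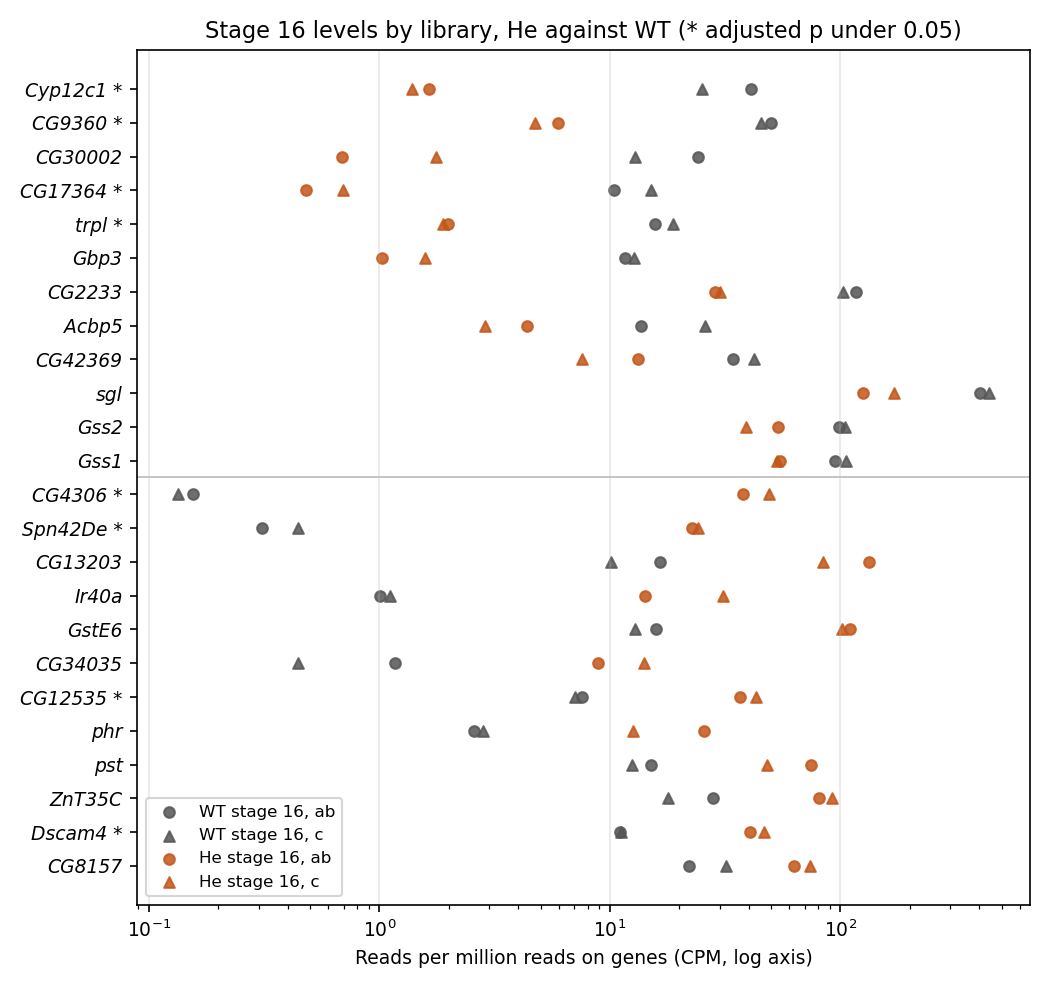
Level in CPM (horizontal log axis) of the 24 genes named by the rule, in WT16ab and WT16c (grey circle and triangle) and He16ab and He16c (orange circle and triangle). Asterisks mark the 8 genes past an adjusted p of 0.05. The lower block holds the 12 genes higher in He and the upper block the 12 genes lower in He, and grey and orange symbols do not overlap within any gene.

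The He and WT libraries of stage 17 are other libraries of the same genotypes, and most of the stage 16 differences were present there. Same-letter libraries deviated together across stages (correlation of deviations 0.33 in He and 0.30 in WT), and the stage 17 libraries shared the limma fit that chose the genes. Of the 29 higher genes, 21 (72.4%) also had both He17 libraries above both WT17 libraries, against 19.1% of all tested genes. Of the 56 lower genes, 48 (85.7%) also had both He17 libraries below both WT17 libraries, against 13.8% of all tested genes. When the genes were chosen from the 4 stage 16 libraries alone, a selection added after the data were seen, it was 28 of 42 higher and 52 of 73 lower genes. The median stage 17 difference was 1.32 for the higher genes against 2.28 at stage 16, and -1.01 for the lower ones against -1.41. Because the genes were chosen by their stage 16 values, smaller medians at stage 17 can arise from the choice alone. A weakening with stage was therefore not shown by these medians. In Ho17, 21 of the 29 higher genes lay above both WT17 libraries in all 3 libraries (14.4% of tested genes), and 42 of the 56 lower genes lay below (14.9%). He17 and Ho17 are set against the same WT17 libraries, and both mutant genotypes carry the deficiency chromosome.

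*CG9360* is an example of a recurrent difference, with 84.7 and 77.0 CPM in WT17, 13.3 and 21.1 CPM in He17, and between 7.82 and 14.5 CPM in the Ho17 libraries. *Spn42De* had 0 reads in both WT17 libraries, 7.77 and 8.60 CPM in He17, and between 10.04 and 24.1 CPM in Ho17. It was the only gene called between He17 and WT17 in limma (difference 5.18, adjusted p = 0.014), which is 0.00882% of those tested, while 792 genes (6.99%) passed an unadjusted p of 0.05. *CG4306* had 0.372 and 0.345 CPM in WT17, and 9.27 and 9.31 CPM in He17. The homozygous embryos had between 2.61 and 9.57 CPM of it. *sgl* was again lower in He17, with 160 and 198 CPM against 356 and 512 CPM in WT17. *Lsp1gamma*, a larval serum protein, and *Cyp4p2*, a cytochrome P450, were lower in He at both stages, *Cyp4p2* with 0.206 and 1.85 CPM in He16 and 0.691 and 0 CPM in He17 against between 9.62 and 24.2 CPM in the WT libraries.

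Other genes, likewise chosen by their stage 16 values, differed at stage 16 and came closer at stage 17. *Dscam4* had 50.0 and 52.5 CPM in WT17, and 60.8 and 54.0 CPM in He17. The change of its difference between stages was -2.06 (SE 0.37, unadjusted p = 0.00040 from limma). *CG12535* was similar, with 20.1 and 26.8 CPM in WT17 and 25.7 and 35.5 CPM in He17, and its difference changed by -2.22 (SE 0.45). *trpl* and *CG17364* were 9.05-fold and 22.0-fold lower in He16, but 1.90-fold and 2.19-fold lower in He17. None of these changes between stages passed the adjusted test, in which 0 of 11337 genes were called by limma and 278 (2.45%) had an unadjusted p under 0.05.

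**Figure D5:**
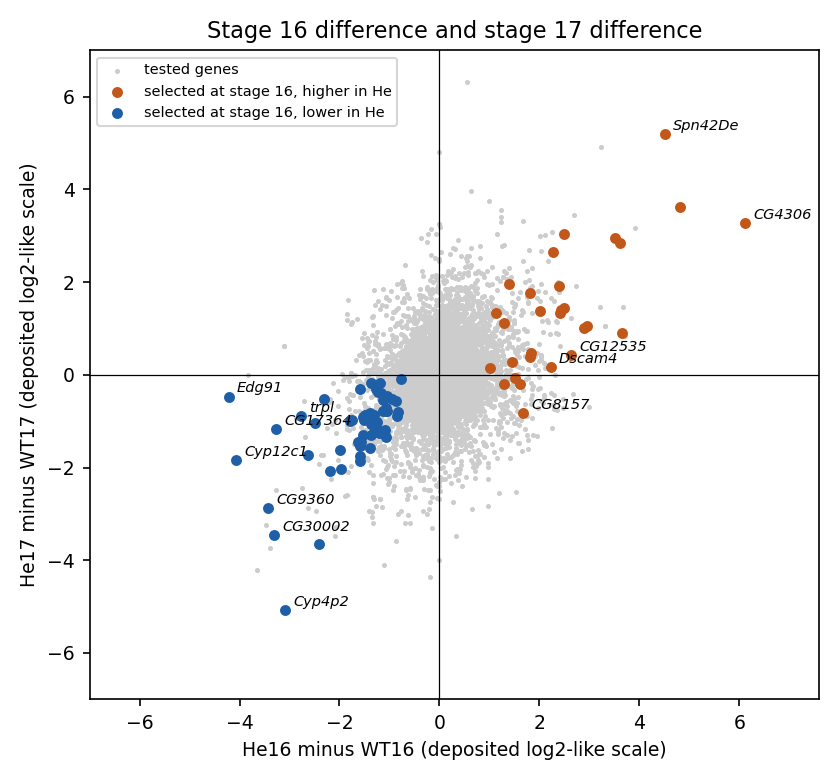
Difference He17 minus WT17 (vertical axis) against difference He16 minus WT16 (horizontal axis), both on the deposited log2-like scale, for all tested genes (grey) and for the 29 higher (orange) and 56 lower (blue) genes selected at stage 16. The 56 blue points all lie below 0 at stage 17, and 25 of the 29 orange points lie above 0. *Dscam4* and *CG12535* lie near the horizontal line, and *CG8157* lies below it.

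Because *sall* mutants have defects of the nervous system, genes of nerve cells were described from lists. *arm*, *CadN* and *Fas2*, which encode beta-catenin, a cadherin and an immunoglobulin-type adhesion molecule, had differences of -0.14, 0.39 and 0.13. *CadN* had 271 and 318 CPM in WT16, and 368 and 376 CPM in He16 (SE 0.23), and *arm* was between 1089 and 1218 CPM in all 4 libraries. None of the 18 neuronal adhesion genes passed an unadjusted p of 0.05 in either direction, and their median was 0.09. Of 15 axonal cytoskeleton genes, 1 did, an entry of *tau* with 2.33 and 4.4 CPM in WT16 and 6.30 and 12.7 CPM in He16. Its other entry, with most of the reads, differed by 0.70 (SE 0.44). The 17 pan-neuronal genes had a median of 0.24, with 15 positive and 2 negative differences and none past an unadjusted p of 0.05. Their summed level was 1693 and 1979 CPM in WT16, and 1847 and 2617 CPM in He16, so that He16c was highest and He16ab lay between the WT libraries. *Syt1*, a calcium sensor of synaptic vesicles, had 90.3 and 103 CPM in WT16, and 114 and 193 CPM in He16 (difference 0.79, SE 0.37).

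Lists for other tissues in which *sall* genes act held few differences. Of 10 oenocyte genes, *FASN2*, a fatty acid synthase, was lower at an unadjusted p of 0.026, with 7.75 and 7.33 CPM in WT16 and 3.84 and 3.00 CPM in He16 (difference -0.99, SE 0.37). It was lower at stage 17 too, with 30.6 and 26 CPM in WT17, and 12.9 and 7.54 CPM in He17. The other 9 oenocyte genes included *FASN3*, which overlapped between genotypes. Among 13 tracheal genes, *knrl*, a nuclear receptor, was higher by 0.73 (SE 0.31), and among 12 glial genes *Gs2*, a glutamine synthetase, was lower (difference -0.93, SE 0.32). None of the 10 neuroblast, 9 sensory organ, 13 muscle or 7 fat body and yolk genes passed an unadjusted p of 0.05. Their medians were -0.05, -0.09, 0.00 and -0.01. Genes of the cell cycle, 16 in number, had a median of -0.23 and none past that threshold.

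Blood cell genes were an exception in part. Among 12 hemocyte genes, 3 were lower and 1 higher at an unadjusted p under 0.05 (25% and 8.33%). The shares over all tested genes were 2.07% and 1.68%. *PPO1* and *PPO2*, prophenoloxidases of the crystal cells, had 233 and 296 CPM and 510.2 and 575 CPM in WT16, and 181 and 92.4 CPM and 384 and 237 CPM in He16. They differed by -1.36 (SE 0.40) and -1.08 (SE 0.35), and at stage 17 by -1.30 and -1.11. *vkg*, a collagen IV chain made by hemocytes and fat body, differed by -0.75 (SE 0.28). The remaining gene, *He*, had 0 reads in WT16 and under 1 CPM in He16. *PPO1* overlaps *Elk*, a potassium channel gene, whose reads were nearly the same (238 and 298 CPM in WT16), so these 2 cannot be separated. In pools of whole embryos, fewer cells of a type and less RNA per cell cannot be told apart. The general hemocyte genes *Pxn*, *srp* and *crq* differed by 0.21, 0.16 and 0.21, and *NimC1*, *lz* and *Col4a1* by -0.78, -0.09 and -0.51, none past an unadjusted p of 0.05. The 12 genes had 6 positive and 6 negative differences, with a median of 0.04. *NimB1*, of the nimrod family that blood cells express and outside the list, was among the 56 lower genes, with 29.7 and 30.1 CPM in WT16, and 15.6 and 8.03 CPM in He16. It was picked from those lower genes after its values were seen, and so adds no evidence on blood cell genes. The summed level of the 12 genes was 5917 and 5566 CPM in WT16, and 3777 and 4063 CPM in He16, mostly from the 2 collagen IV genes.

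Families of detoxification enzymes held differences in both directions. Of 75 cytochrome P450 genes, 3 were higher and 7 lower at an unadjusted p under 0.05 (4% and 9.33%), and the median of the family was 0.02. The shares over all tested genes were 1.68% and 2.07%. The exact negative binomial test called 0.708% of all its genes as higher and 0.606% as lower. *Cyp12c1* was the only one called by limma, and the exact negative binomial test called 5, *Cyp9b2* (adjusted p = 1.6e-07), *Cyp4p2* (1.2e-07) and *Cyp6a13* (0.015) among them. *Cyp9b2* was higher with 1.47 and 0.667 CPM in WT16 and 21.7 and 3.65 CPM in He16, and *Cyp6a13* with 1.86 and 2.35 CPM in WT16 and 13.2 and 6.51 CPM in He16. Of 34 glutathione S-transferase genes, 5 were higher and 2 lower (14.7% and 5.88%), with a median of 0.07. *GstD2* was higher (difference 1.5, SE 0.49) and *GstE1* lower (difference -1.56, SE 0.47), each in the same direction at stage 17. Neither family had a median far from that of all tested genes.

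Few reads came from genes of antimicrobial peptides. Of 20 antimicrobial peptide genes, 4 had enough reads to be tested. *Drsl5* (*dro5*), a drosomycin-like peptide, had 0 and 0.622 CPM in WT16, and 22.5 and 12.5 CPM in He16 (difference 4.82, SE 0.95, adjusted p = 0.28 from limma). The ratio of pooled CPM was 41.7, with an exact interval from 24.7 to 76.8 for counting error. The exact negative binomial test gave it an adjusted p of 2.8e-17. At stage 17 it had 1.73 and 8.20 CPM in He, and 1 read in all in WT. *AttB*, an attacin, had 0 reads in WT16 and 0.548 and 0.739 CPM in He16. Of 13 immune induced molecule genes, none passed an unadjusted p of 0.05. The 17 heat shock genes did not pass it in limma either, while the exact negative binomial test called *Hsp23* and *Hsp27*, and their levels differed widely between libraries of a genotype. *Hsp70Aa*, a stress-induced chaperone, had 641 and 30.5 CPM in WT16ab and WT16c, and 240.3 and 142 CPM in He16ab and He16c.

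The 13 mitochondrially encoded genes were all positive, with a median of 1.60, yet none passed an unadjusted p of 0.05 in limma. The exact negative binomial test called 9 of them. Of all genes it tested, it called 0.708% as higher and 0.606% as lower. *mt:ND2*, a subunit of respiratory complex I, had 2.17 and 0.267 CPM in WT16, and 2.26 and 21.5 CPM in He16 (difference 2.30, SE 1.05). *mt:COX1*, of complex IV, had 292 and 894 CPM in WT16, and 381 and 2070 CPM in He16. Only He16c stood apart, and He16ab was within or close to the WT range for both. Without He16c the difference of *mt:ND2* was 0.81. At stage 17 the median of the 13 genes was -0.73, the opposite direction. There *mt:COX1* had 211 and 1689 CPM in WT17, and 284.5 and 789 CPM in He17.

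Structural proteins of the cuticle did not move as a group. Of 84 cuticle protein genes, 3 were lower and 0 higher at an unadjusted p under 0.05 (3.57% lower, against 2.07% of all tested genes). Their median was 0.00. *Cpr47Ee* had 8.61 and 10.8 CPM in WT16, and 0.617 and 0.923 CPM in He16 (difference -2.71, SE 0.57). *Edg91* was high in WT16c alone, with 1.01 and 33.5 CPM in WT16 against 0.137 and 0 CPM in He16. The 24 Tweedle, 18 Osiris and 15 chitin genes had medians of -0.03, -0.02 and -0.12, with 1 Tweedle gene and no other past that threshold. Of 26 digestive proteases of the midgut, 5 were higher and 0 lower (19.2% higher, against 1.68% of all tested genes). Their median was 0.75, but at very low levels. Their summed level was 22.8 and 20.3 CPM in WT16, and 43.8 and 29.4 CPM in He16. *Jon99Cii*, a serine protease of the gut, had 0.155 and 0 CPM in WT16 and 1.37 and 1.25 CPM in He16. The 90 cytoplasmic ribosomal protein genes had a median of -0.20 and none past an unadjusted p of 0.05. Among 24 odorant binding protein genes, *Obp99a* (difference -1.79, SE 0.41) and *Obp44a* (difference -1.01) were lower. Of 31 tested histone entries, many of which are near copies that share reads, 1 passed the threshold, and that one, *HisT*, is named for histamine transport and is no histone gene. The histone list had a median of 0.61. The 11 antioxidant and 4 sex determination genes had medians of -0.01 and 0.37 and none past an unadjusted p of 0.05. Among 6 genes of eye and body colour, *w* and *v* (*vermilion*, tryptophan oxygenase) were lower, *v* with 12.9 and 13.4 CPM in WT16 and 6.44 and 6.92 CPM in He16.

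Whether He16 embryos differed from WT16 in developmental progress was described with genes that change between stages 16 and 17 in homozygous embryos, since those libraries are not part of the comparison. Of 1310 tested genes that rise from Ho16 to Ho17, 44 were higher and 51 lower in He16 at an unadjusted p under 0.05 (3.36% and 3.89%), and the median difference was 0.05. Of 313 that fall, 6 were higher and 7 lower (1.92% and 2.24%), and the median was -0.05. Of all tested genes, 1.68% were higher and 2.07% lower at that threshold.

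By chromosome arm, 26 of the 85 higher or lower genes lay on 2R (30.6%, against 20.2% of the tested genes) and 12 on 2L (14.1% against 17.4%), the arm of *salm* and *salr*. The X chromosome held 10 (11.8% against 16.2%), of which 9 were lower and 1 higher. All 85 genes together were 56 lower and 29 higher. Several of the 85 overlap each other in the annotation and share reads: *Tk* with *Ect3*, *Dh44* with *Fst*, *Alg3* with *CG5504*, *sgl* with *Surf1*, *PPO1* with *Elk* and *DIP-epsilon* with *CG42369*. The count of 85 is therefore larger than the number of separate measurements.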

How the data were processed

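Poly-A mRNA-Seq libraries of pooled *Drosophila* embryos were sequenced by the authors for 36 or 38 cycles, and the reads were aligned with Bowtie to FlyBase r5.22 (best alignment only), counted on genes with Genominator and processed with DESeq. The deposited table holds 13781 genes and 14 libraries as log2-like values, which the authors made by variance stabilization. A gene without reads has the value -0.040.

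All libraries follow 1 curve, which gave whole reads: of 158533 values above 0 reads, 99.9% were whole to within 0.05 reads, and those that were not stood for 21747 reads or more. Because the deposited log2 values are not counts, limma 3.58.1 (R 4.3.3) was run on them, with 1 mean per condition over the 8 WT and He libraries, a variance trend, and degrees of freedom of 4 (residual) and 4.45 (prior). P-values were adjusted by Benjamini-Hochberg over the genes of a comparison. A gene was kept with 15 reads or more over the 8 libraries and with 10 or more, scaled to the median depth, in 2 of them. The alternative test was an exact negative binomial one, with a variance fit per condition (locfit 1.5.9.12). Exact permutation of 2 against 2 libraries cannot go below p = 0.333 and was not used. Libraries with the same experiment letter deviated together, with correlations of their deviations between 0.15 and 0.35 over the 6 pairs of conditions, so the letter pairs them. Other alternatives were filters of 0 and 50 reads, pseudocounts, CPM from library totals, thinning to 12895645 reads, precision weights, an adjusted p of 0.001, other sets of libraries and leaving out each library. The recovery of reads, the limma fit and the exact negative binomial test were tried on simulated reads. For limma these were log2 normalized reads, not values on the deposited scale. The other alternatives were not tried in this way.

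Named genes were *salm*, *salr*, a set of 8 genes listed for dose (7 of them from the study's account of dose, and *CG4306*, which the study mentions elsewhere), *w*, the 5 nearest tested genes on each side of the *salm* and *salr* pair, up to 12 genes per direction (called genes first, by size, then by p under 0.01, without overlap and with at least 10 CPM), and up to 3 genes of each of 31 lists. Genes given beside these were chosen after their values were seen. The members, lists and rules were chosen with earlier results of these data known. Names, arms and gene order came from a Release 6 annotation (13625 genes named), so no coordinates are given. Of the genes with reads, 759 had the same reads as another gene. Stage was taken from the library titles, since the stage field of the stage 17 libraries gives stage 16. Libraries of a genotype come from separate pools. The p-values of limma measure the spread between pools within the conditions of the fit, stage 17 included, moderated by a trend over genes. In the exact negative binomial test the variance comes from a curve over genes, so its p-values do not measure the spread of a gene's own libraries.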

Additional observations from a re-analysis of the deposited data

Results flagged for a closer look

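For 2 genes the He and WT libraries were separated in opposite directions at the stages. *CG8157* was higher in He16 by 1.67, with both He libraries above both WT libraries, and lower in He17, where it had 322 and 229 CPM against 362 and 497 CPM in WT17. The change of the difference between stages was -2.50 (SE 0.45, unadjusted p = 0.00047 and adjusted p = 1 from limma), so it did not pass the adjusted test. *Twdlalpha*, a Tweedle cuticle gene, had 0 reads in both WT16 libraries and 4 and 7 reads in He16 (difference 1.85), while at stage 17 it had 21.9 and 28.9 CPM in WT and 19.3 and 11.2 CPM in He. Its change was -2.78 (SE 0.63, adjusted p = 1 from limma).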

How the results depend on the processing

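Of the named genes, 33 (*salm*, *salr*, the genes listed for dose, *w* and the 24 plotted by library) were refitted under 19 alternatives, and none of these changed direction. Much of this was fixed in advance. Other filters, the replicate block and other sets of libraries that kept the 4 stage 16 libraries leave the He16 minus WT16 difference unchanged by construction. The 24 plotted genes were chosen without overlap, so leaving out a stage 16 library could not reverse them. The kept directions are therefore little evidence of robustness. The neighbours of *salm* and *salr* and the members of the lists were not refitted one by one. The 4 higher and 4 lower calls became 8 and 6 with the replicate block, with all 8 of them kept, 90 and 77 with the exact negative binomial test (44 and 32 at an adjusted p under 0.001, a threshold added to that test after the data were seen), 1 and 0 with all 14 libraries, and 0 and 0 with precision weights or at an adjusted p under 0.001. With precision weights, 460 genes still had an unadjusted p under 0.05. Leaving out 1 library gave between 0 and 6 higher and between 0 and 6 lower calls. The other alternatives (2 filters, 2 pseudocounts, library totals, thinning, and the 4 stage 16 libraries alone) gave between 3 and 5 calls in each direction. The difference of *CG4306* ran from 5.27 to 8.21 and that of *salm* from -0.60 to -0.12. When leaving out a library left 1 He or WT library at stage 16, its spread was taken from the other groups. With 2 libraries per genotype, and depths that allow 3 reads at a count of 0, a change of low genes was often not detectable. The cause of the differences between fits was not tested.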
